A study of Homo sapiens with 6 samples.

Results

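HOXC and HOXD genes are the homeobox genes of the HOXC cluster on chromosome 12 and of the HOXD cluster on chromosome 2. The 10 genes described here are HOXC4, HOXC6, HOXC8, HOXC9, HOXC10, HOXD1, HOXD4, HOXD8, HOXD10 and HOXD11. Every probe set annotated to one of them and to no other gene was taken, which gave 14 of 54613 probe sets tested, 5 for HOXC and 9 for HOXD. The measurements came from 6 one-colour expression arrays in 2 groups of 3. One group was mesodermal progenitors, derived from H9 cells with VEGF, FGF2, BMP4 and activin A in Stemline II medium. At day 3.5 the cells without CD326, the epithelial adhesion molecule EPCAM, and with CD56, the neural adhesion molecule NCAM1, had been collected by sorting. They were set against H9 itself, a much used human embryonic stem cell (hESC) line, left undifferentiated. Both groups came from that 1 line, and no unsorted cells of that day were analysed here, so the sort and the differentiation cannot be told apart.

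HOX proteins are transcription factors that bind DNA through a homeodomain and give cells along the body axis their regional identity. Their genes lie in clusters in the order in which they act: low-numbered genes at the 3′ end are switched on early and towards the head, and high-numbered genes at the 5′ end later and towards the tail. In the embryo this activation begins in the primitive streak, where mesoderm is formed, under WNT, FGF and retinoic acid signals and the CDX factors. HOX proteins bind DNA together with partners of the TALE class, the PBX and MEIS proteins.

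The labels were checked against marker genes. All 8 markers of streak and lateral mesoderm were higher in the progenitors, with a median log2 change of 5.30, and all 6 measured stem cell markers were lower, with a median of -2.73. Of the sort antigens, NCAM1 was higher by 3.46 and EPCAM lower, at -2.33 on the log2 scale. Markers of other cells moved as well: all 3 measured markers of definitive endoderm were higher, SOX17 by 2.36 and CXCR4 by 1.8, and of 8 fibroblast and stroma markers 5 were higher and 2 lower. Of 6 neural tube markers 1 was higher, IRX3 by 5.50, and 5 did not pass. Of 5 markers of somite and paraxial mesoderm TBX6 was higher (1.36), TCF15 was lower (-0.59) and 3 did not pass. Median deposited intensities were 31.0 to 31.2 on the progenitor arrays and 33.1 to 36.1 on the hESC arrays. Progenitor array 1 stood apart in genes of endothelium and blood: their 7 markers summed to an intensity of 6200 there, against 1944 and 2089 on progenitor arrays 2 and 3 and 602.4 to 663.2 on the hESC arrays. The values below are given for each array for that reason.

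HOXC and HOXD transcripts gave low signals in both groups, and a few HOXD probe sets were higher in the progenitors. Over the 14 probe sets and 6 arrays the highest intensity was 205.4, for HOXC6 on an hESC array, and 10 of the 14 lay below the median probe set in mean level. Such a rank also depends on how well the probes bind, so it is no measure of transcript number. In these bulk samples fewer cells with a transcript and less transcript per cell cannot be told apart. With limma across all probe sets, 4 of the 14 were higher in the progenitors at an adjusted p under 0.05, all of them HOXD, whereas 20.3% of all probe sets were called higher. None was lower, where 20.0% of all probe sets were called lower, and at an unadjusted p under 0.05 in limma 0 of the 14 were lower and 5 higher. Of the 10 members below the median level 3 were called higher, and of all probe sets below it 9.65% were. The median log2 change was 0.39 over the 9 HOXD probe sets and -0.22 over the 5 of HOXC, against 0.01 over all probe sets. Log2 changes are progenitor mean minus hESC mean of quantile-normalized log2(intensity + 16), a scale that understates the change of dim probe sets. With scaling on the hybridization controls of each array, the median change of all probe sets was 0.21, and 19604 probe sets were called higher and 6105 lower, against 11070 and 10903 on the scale used here.

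**Figure D1:**
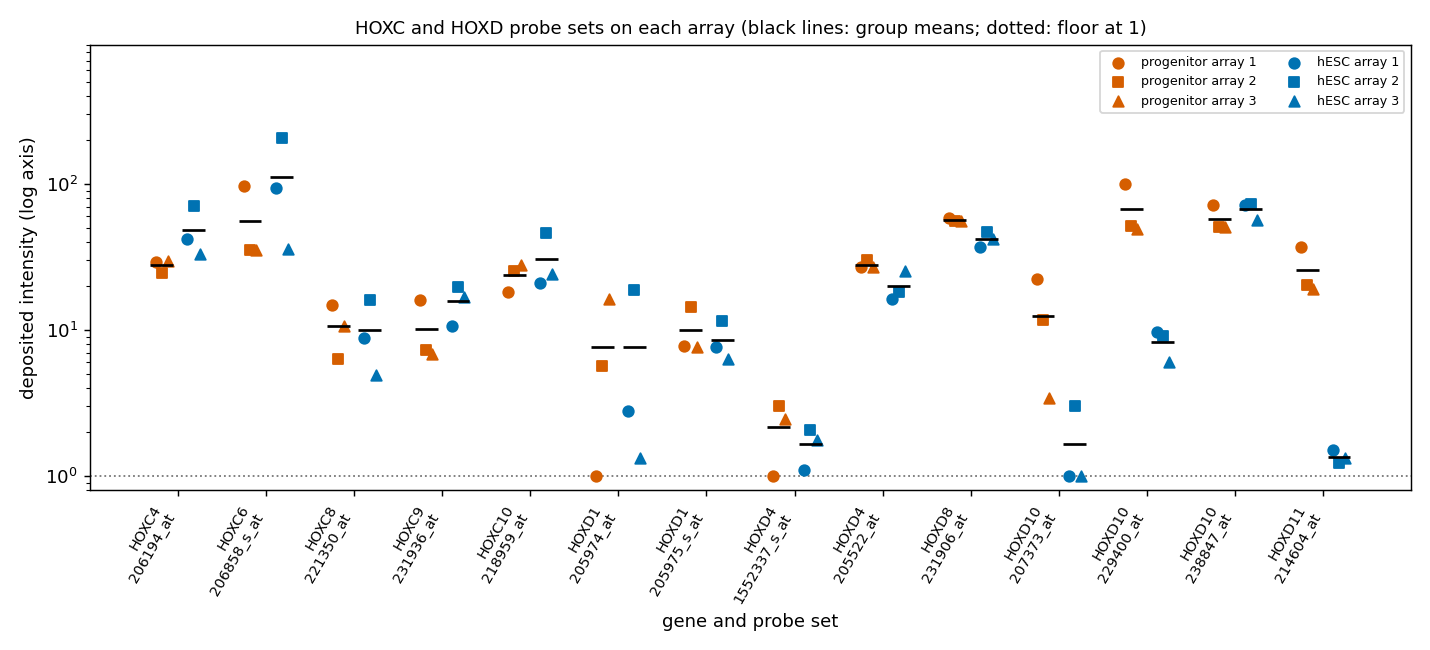
Deposited intensity (log axis) of each HOXC and HOXD probe set on the 3 progenitor arrays (orange, left) and the 3 hESC arrays (blue, right), with black lines at group means and a dotted line at 1, the value that 2.15% of all deposited values take. The progenitor points of HOXD11 lie between 19.2 and 37.3 and its hESC points between 1.23 and 1.51, while those of the HOXC genes other than HOXC4 overlap.

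The groups did not overlap in 5 probe sets that were higher in the progenitors, all HOXD, and in 1 that was lower, that of HOXC4. In 1 of the 5, HOXD10 (207373_at), the separation was 3.45 against 3.00, next to 1, and gives no order. Over all probe sets the groups did not overlap in 26.1% with higher and 25.1% with lower values in the progenitors.

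HOXD10 on its probe set 229400_at and HOXD11, neighbours towards the 5′ end of the HOXD cluster, had the largest increases among the 14 probe sets. By the brightest probe set of each gene, HOXD10 was at -0.09, below HOXD8 (0.43) and HOXD4 (0.39). In the mouse, Hoxd10 acts in the lumbar spinal cord and the limb, and Hoxd11 with Hoxa11 shapes the forearm and the kidney. HOXD11 had intensities of 37.3, 20.3 and 19.2 on progenitor arrays 1, 2 and 3, against 1.51, 1.23 and 1.34 on hESC arrays 1, 2 and 3. All hESC values were close to 1, the value that 2.15% of all deposited values take. Its log2 change was 1.28 (SE 0.17, n = 3 per group, limma adjusted p = 0.00078). At a pseudocount of 1 in place of 16 the change was 3.53, and at 64 it was 0.47, so its size rests on the pseudocount while the call did not.

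HOXD10 has 3 probe sets, and they differed. Probe set 229400_at had 100.1, 51.9 and 49.0 on progenitor arrays 1, 2 and 3, against 9.64, 9.05 and 6.03 on hESC arrays 1, 2 and 3. Every progenitor value was at least as high as 49.0 and no hESC value was above 9.64. The log2 change was 1.78 (SE 0.21, limma adjusted p = 0.000464), and it was 2.93 at a pseudocount of 1 and 0.87 at 64, with a call at each. Probe set 207373_at had 22.2, 11.7 and 3.45 on the progenitor arrays, against 1.00, 3.00 and 1.00 on the hESC arrays. The lowest progenitor value and the highest hESC value, 3.45 and 3.00, were too close to 1 for an order, and the progenitor values were widely spread. The log2 change of 0.67 (SE 0.23) missed the threshold with an adjusted p of 0.0565 in limma. Without progenitor array 1 this change was 0.43 (adjusted p = 0.109), and without array 3 it was 0.93 (adjusted p = 0.0077). At pseudocounts of 1 and 64 it was 2.21 (adjusted p = 0.0411) and 0.23 (adjusted p = 0.105).

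Probe set 238847_at, the HOXD10 probe set with the highest mean level, had 72.3, 50.6 and 51.0 on the progenitor arrays, against 71.7, 72.7 and 56.8 on the hESC arrays. The groups overlapped, and its log2 change was -0.09 (95% confidence interval -0.40 to 0.22). With scaling on hybridization controls the sign turned, to 0.24 without a call. That the HOXD10 probe sets disagree was known when the genes were chosen, so their difference is given as values with no test. Representing HOXD10 by its brightest probe set therefore gives no call for the gene, and the mean of its 3 probe sets gives a log2 change of 0.79 (limma adjusted p = 0.00669). The annotation used here does not say which exon or end of the transcript each probe set matches.

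**Figure D2:**
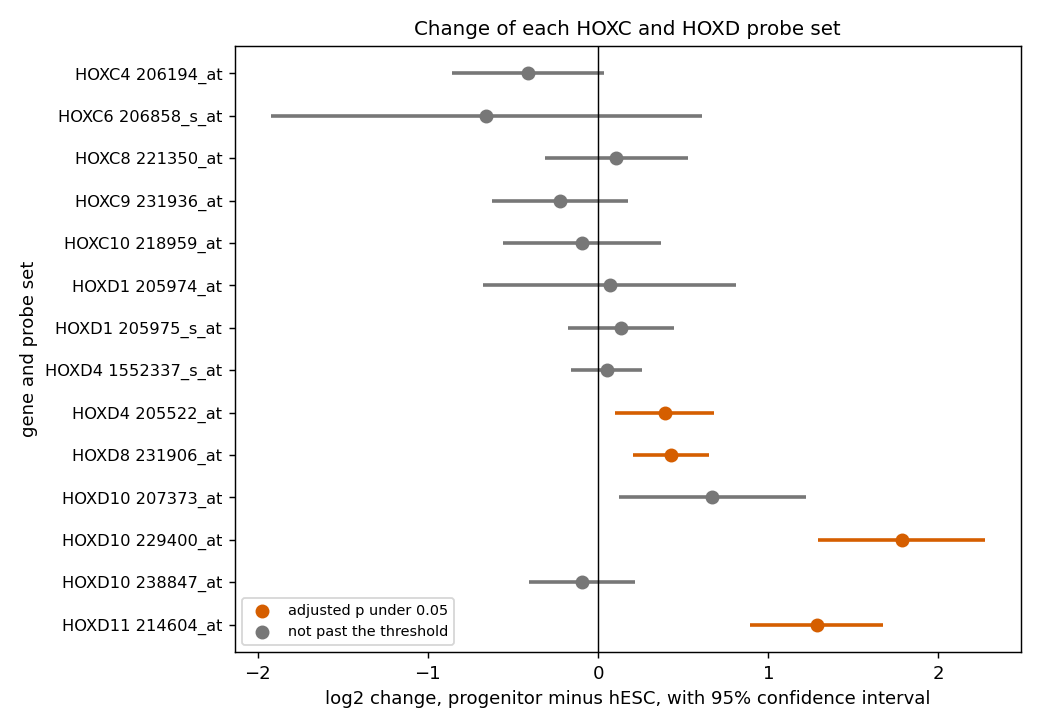
Log2 change, progenitor minus hESC, of each HOXC and HOXD probe set (points) with its 95% confidence interval from limma (lines), orange where the adjusted p was under 0.05. The probe sets of HOXD10 lie at 0.67, 1.78 and -0.09, and no interval of a HOXC probe set leaves out 0.

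All probe sets of HOXD10 and HOXD11 were highest on progenitor array 1 among the progenitor arrays, as were 37.6% of all probe sets. So were 9 of 10 HOXB genes by their brightest probe set, with a median log2 difference of 0.26 from the other progenitor arrays. Of the stem cell markers 4 of 6 were highest there (median 0.15), and of the streak and lateral mesoderm markers 4 of 8 (0.00). HOXD10 (229400_at) was 0.75 higher there on the log2 scale than the mean of the other progenitor arrays, and HOXD11 was 0.59 higher. The endothelial and blood markers were higher on the same array by a median of 1.40 over 7 genes, of which 5 were higher in the progenitors and 2 did not pass. CDH5, a cadherin of endothelium, had 1012, 101.5 and 121.4 on the progenitor arrays, against 1.40, 1.90 and 2.38 on the hESC arrays. The part of those cells in the HOXD values was not tested. Without progenitor array 1 the log2 changes were 1.54 for HOXD10 (229400_at, adjusted p = 0.00023) and 1.10 for HOXD11 (adjusted p = 0.000401) in limma, both past the threshold.

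The start regions of HOXD8, HOXD10 and HOXD11 are shown because these genes had the called probe sets that also passed without any one of the arrays. The windows run from 250 bases before to 50 bases after the gene start in RefSeq on GRCh38.p14, plus strand, at chr2:176107030-176107329 for HOXD11, chr2:176116528-176116827 for HOXD10 and chr2:176129455-176129754 for HOXD8. Capitals mark matches to the motifs searched.
HOXD11: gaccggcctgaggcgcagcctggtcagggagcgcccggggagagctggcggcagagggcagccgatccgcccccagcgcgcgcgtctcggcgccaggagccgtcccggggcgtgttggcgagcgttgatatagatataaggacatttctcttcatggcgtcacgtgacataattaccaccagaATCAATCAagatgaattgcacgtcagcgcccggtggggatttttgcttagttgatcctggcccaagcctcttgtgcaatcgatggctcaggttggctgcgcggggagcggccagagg
HOXD10: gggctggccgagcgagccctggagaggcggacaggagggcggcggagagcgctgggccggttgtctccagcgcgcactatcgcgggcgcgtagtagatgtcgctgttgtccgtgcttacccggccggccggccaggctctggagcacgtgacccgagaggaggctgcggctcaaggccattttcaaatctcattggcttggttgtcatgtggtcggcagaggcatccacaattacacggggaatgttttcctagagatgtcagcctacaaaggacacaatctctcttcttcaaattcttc
HOXD8: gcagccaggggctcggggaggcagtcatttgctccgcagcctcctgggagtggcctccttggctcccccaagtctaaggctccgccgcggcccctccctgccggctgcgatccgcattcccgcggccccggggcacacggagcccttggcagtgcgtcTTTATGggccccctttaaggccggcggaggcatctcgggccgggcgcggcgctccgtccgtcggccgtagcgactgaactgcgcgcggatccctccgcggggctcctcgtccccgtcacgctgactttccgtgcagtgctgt

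Promoter windows were found for 6 of the 10 genes, HOXC4, HOXD1, HOXD4, HOXD8, HOXD10 and HOXD11. They were searched on both strands for TGATTNAT, a motif of PBX with HOX proteins, TTTATG, the core of the CDX motif, AGGTCA, a hexamer bound by nuclear receptors such as those for retinoic acid, and TATAAA, the TATA box. These motifs do not overlap in the windows shown. TGATTNAT matched once, in HOXD11 at -67 bases from the start, on the reverse strand, and is held by 2.8% of 35116 promoter windows. TTTATG matched once, in HOXD8 at -92 bases, and is held by 10.6% of windows. AGGTCA (13.8% of windows) and TATAAA (11.5%) matched in none of the 6. The HOXD11, HOXD10 and HOXD8 windows held 27, 23 and 34 CpG dinucleotides, against a median of 14 over all windows. Those of HOXD1, HOXC4 and HOXD4, the first 2 without a called probe set, held 36, 15 and 4. A match is a description of letters and not a bound site.

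HOXD8, from the middle of the cluster, rose by a small amount. In the mouse it acts with the paralogous Hoxb8 and Hoxc8 in the trunk skeleton. Its probe set had 59.0, 55.7 and 55.9 on the progenitor arrays, against 37.3, 47.1 and 41.8 on the hESC arrays. The groups did not overlap, the log2 change was 0.43 (SE 0.09, limma adjusted p = 0.00898), and the call was kept in all 19 alternatives in which it was tested, with adjusted p of 0.000865 to 0.035. Its size was 0.56 at a pseudocount of 1 and 0.25 at 64.

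HOXD4, a gene of the hindbrain and neck region in the mouse, had 2 probe sets. Probe set 205522_at had 26.8, 30.2 and 26.9 on the progenitor arrays, against 16.3, 18.1 and 25.4 on the hESC arrays, so that the third hESC value lay close to the progenitors. The log2 change of 0.39 (SE 0.12) passed with an adjusted p of 0.0396 in limma. It did not pass in 12 of 18 alternatives, among them leaving out any one of the progenitor arrays or hESC array 1 or 2 (0.317 to 0.412, adjusted p 0.0747 to 0.127). The other probe set, 1552337_s_at, stayed between 1.00 and 3.00 on all 6 arrays, too close to 1 for an order. It is therefore not set against the other.

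HOXD1, the gene at the 3′ end of the HOXD cluster, did not pass on either of its probe sets. Hoxd1 is known in the mouse for the wiring of pain-sensing neurons. Probe set 205974_at had 1.00, 5.67 and 16.3 on the progenitor arrays, against 2.80, 18.7 and 1.33 on the hESC arrays, so that each group spanned nearly the whole range. Probe set 205975_s_at had 7.83, 14.4 and 7.71 on the progenitor arrays, against 7.69, 11.6 and 6.38 on the hESC arrays. Their log2 changes were 0.07 (95% confidence interval -0.67 to 0.81) and 0.13 (-0.18 to 0.45), and their difference was -0.07 (95% confidence interval -0.75 to 0.62, limma adjusted p = 0.887). Over all pairs of probe sets of 1 gene, 38.9% of 42435 pairs changed unequally at an adjusted p under 0.05.

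None of the 5 HOXC probe sets was called, and none had an unadjusted p under 0.05 in limma. HOXC6, a gene of the thoracic region, had the widest spread. Its probe set 206858_s_at, of a kind that can match several transcripts, had 96.8, 35.3 and 35.2 on the progenitor arrays, against 94.4, 205.4 and 35.6 on the hESC arrays. Progenitor arrays 2 and 3 and hESC array 3 had nearly equal values, so the groups overlapped. The log2 change was -0.66 (SE 0.54, 95% confidence interval -1.92 to 0.61, limma adjusted p = 0.393). It was -0.13 without hESC array 2, -1.19 without hESC array 3 and -1.01 without progenitor array 1, none of them called.

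HOXC4, at the 3′ end of its cluster, had 29.3, 24.6 and 29.7 on the progenitor arrays, against 41.9, 70.3 and 33.2 on the hESC arrays. All 3 progenitor values lay below all hESC values. The log2 change of -0.41 (SE 0.19, 95% confidence interval -0.86 to 0.03) missed the threshold with a limma adjusted p of 0.13, and was -0.20 without hESC array 2 and -0.15 with scaling on hybridization controls.

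HOXC8, HOXC9 and HOXC10 are known in the mouse for the identity of motor neurons from the lower neck to the lumbar cord. HOXC8 had 14.8, 6.34 and 10.7 on the progenitor arrays, against 8.76, 16.2 and 4.89 on the hESC arrays. HOXC9 had 16.1, 7.36 and 6.81 on the progenitor arrays, against 10.7, 19.7 and 16.8 on the hESC arrays. HOXC10 had 18.3, 25.4 and 27.7 on the progenitor arrays, against 21.0, 46.2 and 24.2 on the hESC arrays. In each of these genes the groups overlapped. Their log2 changes were 0.11 (95% confidence interval -0.31 to 0.53), -0.22 (-0.62 to 0.18) and -0.10 (-0.56 to 0.37). Depending on the array left out, the change of HOXC8 ran from -0.02 to 0.25 and that of HOXC10 from -0.24 to 0.11, and that of HOXC10 was 0.14 with scaling on hybridization controls, so no direction can be given for HOXC8 and HOXC10. That of HOXC9 was -0.39 (adjusted p = 0.0749) without progenitor array 1 and -0.14 without progenitor array 3.

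All 5 HOXC probe sets had their highest hESC value on hESC array 2, where they lay above the mean of the other hESC arrays by 0.21 (HOXC9) to 1.59 (HOXC6) on the log2 scale. The median was 0.63 over HOXC, 0.09 over the 9 HOXD probe sets and -0.02 over all 54613, and 32.7% of all probe sets were highest on that array among the hESC arrays. Other genes were highest there too among the hESC arrays: 8 of 10 HOXB genes with a median difference of 0.26, 5 of 6 stem cell markers with 0.11, and 6 of 8 markers of streak and lateral mesoderm with 0.25. The mesoderm markers had summed intensities of 282.5 on array 2 and 208.1 and 197.0 on arrays 1 and 3. The 8 fibroblast and stroma markers summed to 8480 on array 2 and to 7414 and 6833 on arrays 1 and 3, but only 3 of the 8 were highest on array 2. The part of such cells in the HOXC values was not tested. On progenitor array 1, HOXC6, HOXC8 and HOXC9 were the HOXC genes at their highest progenitor value, and HOXC4 and HOXC10 were highest on array 3. Of all probe sets 37.6% were highest on progenitor array 1 among the progenitor arrays.

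**Figure D3:**
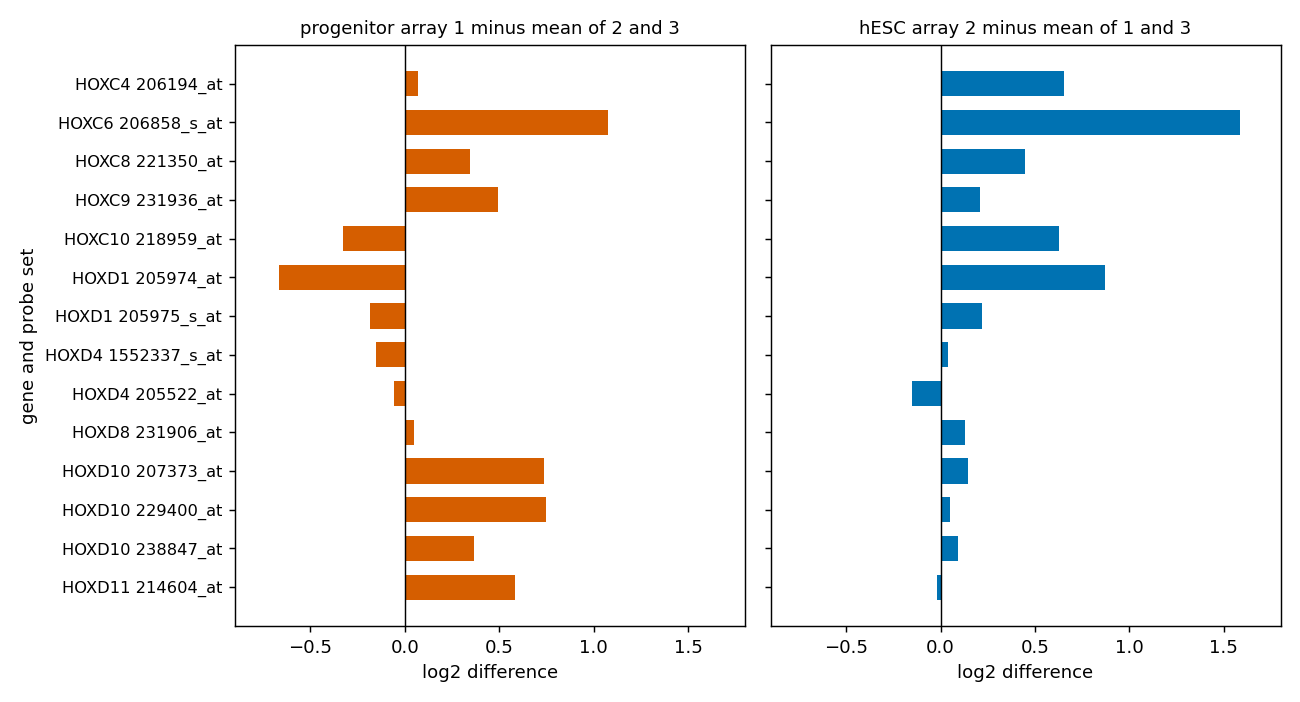
Log2 difference of progenitor array 1 from the mean of the other progenitor arrays (left panel, orange bars) and of hESC array 2 from the mean of the other hESC arrays (right panel, blue bars), for each HOXC and HOXD probe set. HOXC6 has the longest bar in both panels, at 1.08 and 1.59. In the left panel the bars of HOXD10 (0.367 to 0.745) and HOXD11 (0.585) are positive, and the longest negative bar is that of HOXD1 (205974_at), at -0.665.

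The HOXB cluster is given beside them. It holds paralogs of HOXC4, HOXC6, HOXC8, HOXC9, HOXD1, HOXD4 and HOXD8, but none of HOXC10, HOXD10 and HOXD11. Of its 19 probe sets 14 were called higher and none lower (0 lower also at an unadjusted p under 0.05 in limma), with a median log2 change of 2.49, against 0.09 over the 14 HOXC and HOXD probe sets. HOXB2 and HOXB6 led with 6.77 and 5.74, and HOXB6 was at 3.57 on the mean of its probe sets. In the paralog group of HOXC8 and HOXD8, HOXB8 had a log2 change of 4.75 on its brightest probe set, and in that of HOXC4 and HOXD4, HOXB4 had 2.49. Of the HOXA cluster 1 of 11 genes was analysed here, HOXA2, which did not pass (0.26).

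**Figure D4:**
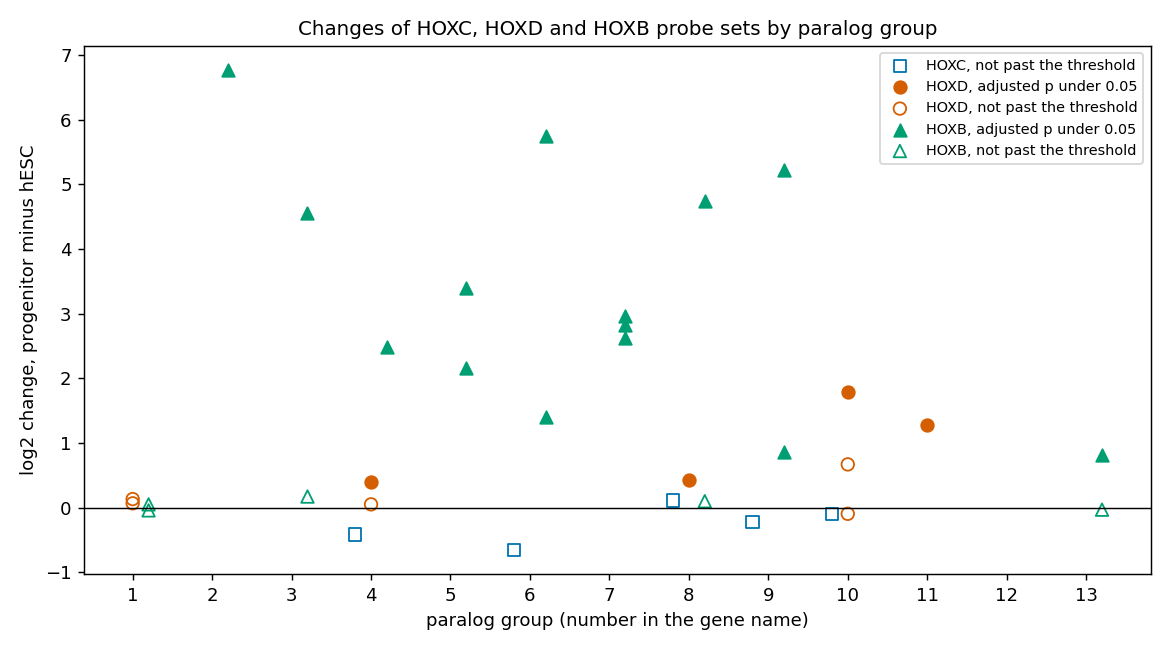
Log2 change, progenitor minus hESC, of HOXC (squares), HOXD (circles) and HOXB (triangles) probe sets against the paralog group, the number in the gene name (clusters are set slightly apart sideways), with filled symbols at an adjusted p under 0.05. HOXB probe sets reach 6.77, whereas the HOXC and HOXD probe sets lie between -0.66 and 1.78.

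Other genes of the HOX system were counted from a list by the brightest probe set of each gene. Of 56 measured genes, HOXB and HOXA included, 30 were higher, 3 lower and 23 did not pass, with a median of 0.36. Over all genes represented in this way 25.3% were higher and 20.0% lower. The 56 also hold the genes that flank the clusters, 7 beside HOXC (3 higher, 1 lower) and 6 beside HOXD (2 higher). These flanking genes stay in the count wherever other HOX system genes are counted below. In the rest of the HOXC cluster 1 of 4 genes was higher, HOXC12 (0.48), and in the rest of the HOXD cluster 1 of 3, HOXD13 (0.58), the gene at its 5′ end. HOXC12 was dim, with 13.6, 10.9 and 14.2 on the progenitor arrays, against 4.08, 8.55 and 4.23 on the hESC arrays. It was among the dimmest 30% of probe sets, and its limma adjusted p was 0.0105. On the mean of its probe sets HOXD13 did not pass (0.15, limma adjusted p = 0.237). Of 6 noncoding RNAs of the clusters, the antisense RNAs HOXD-AS2 (0.57) and HAGLR (0.36) were higher and 4 did not pass, among them HOTAIR, with a change of 0.00. Both calls were fragile. The intensities of HOXD-AS2 were 10.69, 14.55 and 6.64 on the progenitor arrays, against 1.0, 5.48 and 1.0 on the hESC arrays, so they lay near the floor. HOXD-AS2 did not pass without progenitor array 1 or 2 or hESC array 1 or 3 (adjusted p 0.0534 to 0.0698). HAGLR did not pass without any one of the same 4 arrays (adjusted p 0.109 to 0.135) or at pseudocounts of 1 and 64, and averaged over its probe sets it was at -0.06.

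Among the regulators, CDX2 and CDX4, homeobox factors that act on HOX clusters, were higher by 1.86 and 0.77, and CDX1 did not pass. Of 8 TALE partners 6 were higher, 1 was lower and 1 did not pass. MEIS2 and MEIS1 rose by 5.36 and 4.30, and PBX4 was lower (-1.90). Of 7 genes of trunk patterning 4 were higher, led by TBXT (3.13), the factor brachyury, and RARB (2.61), a retinoic acid receptor, and EVX1 was lower (-1.96). On the mean of their probe sets RARB and EVX1 were at 0.72 and -0.93, both called. Geminin (GMNN), which binds HOX proteins and DNA licensing factors, did not pass (-0.25).

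The genes that flank the clusters were looked at for changes of the region as a whole. Beside HOXD, 2 of 6 genes were higher, LNPK (0.48) and NFE2L2 (0.36). LNPK lost its call when progenitor array 2 was left out (adjusted p = 0.0592), and its probe sets averaged 0.91. NFE2L2 lost its call when hESC array 1 was left out (adjusted p = 0.0609) and when its probe sets were averaged (0.16). On the scale used here, ATF2 (0.20), ATP5MC3 (0.02), MTX2 (-0.06) and HNRNPA3 (0.07) did not pass. ATF2, ATP5MC3, MTX2 and HNRNPA3 were called higher with scaling on hybridization controls (0.66, 0.54, 0.40 and 0.52). Beside HOXC, COPZ1 (1.13), CBX5 (0.61) and ATP5MC2 (0.51) were higher and CALCOCO1 (-0.66) was lower, and SMUG1 (0.26), NFE2 (0.25) and HNRNPA1 (-0.07) did not pass. With that scaling SMUG1 (0.79), NFE2 (0.45) and HNRNPA1 (0.42) were called higher, and CALCOCO1 did not pass (-0.13). On the mean of each gene's probe sets SMUG1 (0.34) and NFE2 (0.25) were called higher and HNRNPA1 lower (-1.28), so HNRNPA1 has no settled direction.

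The probe sets whose pattern over the 6 arrays was most like that of HOXD10 (229400_at) were those of IL1R1, CCDC81 and BBIP1. Their root mean square distances from it, after each probe set was centred on its own mean, were 0.06, 0.08 and 0.09 on the log2 scale, and their log2 changes were 1.78, 1.71 and 1.78. No HOXC probe set was called, so none was used for such a search.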

How the data were processed

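RNA of 3 progenitor and 3 hESC samples had been labelled as biotinylated cRNA after amplification, per the labels' protocols. The deposited values are linear intensities, 1 for each probe set, of which 2.15% equal 1 and 0.0058% lie below it. How the authors summarised, background-corrected and scaled these deposited intensities is not given in the sources used here. The table holds 54675 probe sets, of which 62 array controls were left out of the tests. Genes were named from the platform annotation, with symbols updated through gene identifiers.

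Intensities were converted to log2(intensity + 16) and quantile-normalized, and all 54613 probe sets were fitted singly with lmFit and eBayes of limma 3.58.1 (R 4.3.3), two-sided, with Benjamini-Hochberg adjustment over all of them and probe sets under 0.05 after adjustment were called. Pairs of probe sets of 1 gene were fitted on their differences within arrays. Both fits were run on simulated arrays with independent normal noise and no floor at 1. That run cannot tell how the fits behave for values near 1. Whether the replicates were separate cultures is not in the labels, so the p-values cover the spread among these arrays alone, possibly a technical one, and 3 arrays per group limit the precision. Members and lists were chosen with earlier results of these data known. Every member probe set was named. Of the listed genes, the 2 largest called changes in each direction per subgroup and all flanking genes were named, and others were chosen after their values were seen. The alternatives were pseudocounts of 1 and 64, other scalings and filters, another variance model and the replicate block. The others were progenitor arrays 2 and 3 averaged into 1, probe sets combined per gene, an adjusted p under 0.01 and each array left out. Figures were drawn with matplotlib 3.10.9.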

Additional observations from a re-analysis of the deposited data

How the results depend on the processing

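The calls of HOXD8, HOXD10 (229400_at) and HOXD11 were kept in each alternative in which they were tested. HOXD11 was among the dimmest 30% of probe sets, so it was not tested under either filter. HOXD10 (229400_at) was not tested without the dimmest 50% or where the brightest probe set stood for each gene. Filters took away members: 7 of 14 remained without the dimmest 30%, where 3 were called higher, against 10871 of 38229 probe sets. Without the dimmest 50%, 4 remained and 1 was called higher in place of 4, against 9093 of 27306 probe sets. With each array left out, 3 to 4 of 14 members were called higher and 0 lower. Of all 54613 probe sets 8899 to 11317 were called higher and 8940 to 10852 lower. Of the other HOX system genes 25 to 31 were higher and 3 lower. On the mean of each gene's probe sets, 5 of those genes were lower in place of 3. HOXD10 (207373_at) was called in 7 of 15 alternatives, among them the replicate block (adjusted p = 0.0463).

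The labels do not say whether the replicate numbers pair the arrays. Same-numbered arrays deviated from their group means with correlations of -0.03, 0.06 and -0.06, and differently numbered ones with -0.06 to 0.08. With 3 arrays per group these values cannot decide whether the arrays are paired. With the replicate block 4 members were called higher, HOXD10 (207373_at) in place of HOXD4, and 28 other HOX system genes, against 10158 of all 54613 probe sets. With progenitor arrays 2 and 3 averaged the same 4 members were called higher, against 9081 of all probe sets. Without normalization between arrays 3 of 14 members and 10214 of all 54613 probe sets were called higher. With median centring these were 5 and 12588, and with scaling on hybridization controls 5 and 19604.

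Signs of single probe sets turned in members and flanking genes that had not passed, and the cause was not tested. On hybridization controls HOXC10 was at 0.14, HOXD10 (238847_at) at 0.244, HNRNPA1 at 0.417 and MTX2 at 0.398. With arrays left out, HOXC8 ran from -0.023 to 0.253, HOXC10 from -0.237 to 0.112, HOXD1 (205974_at) from -0.195 to 0.354, ATP5MC3 from -0.002 to 0.036 and HNRNPA3 from -0.054 to 0.19. With progenitor arrays 2 and 3 averaged HOXD1 (205974_at) was at -0.043, and without normalization HNRNPA3 was at -0.009. In 3 genes the mean of the probe sets had another sign than the brightest probe set. These were HOXD10 (0.786 against -0.094), ATP5MC3 (-0.051 against 0.021) and HAGLR (-0.06 against 0.364), which had passed on its brightest. Such a mean takes in the other probe sets of the gene, in HOXD10 those at 1.783 and 0.67, so no single probe set turned there. Pairs of probe sets with unequal change numbered 11375 at a pseudocount of 1, 18828 at 64 and 12110 of 26586 without the dimmest 30%, against 16498.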

Other observations

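Probe sets annotated jointly to HOXD3, HOXD4 and LOC401021 were left out of the comparison because they name no single gene, and their intensities were low. Probe set 206601_s_at had 1.00, 5.76 and 10.2 on the progenitor arrays and 1.00, 1.55 and 25.8 on the hESC arrays. Probe set 206602_s_at had 3.35, 11.9 and 7.31 on the progenitor arrays and 5.19, 5.0 and 6.27 on the hESC arrays. Probe set 217076_s_at had 4.61, 4.32 and 8.27 on the progenitor arrays and 3.73, 5.21 and 2.19 on the hESC arrays. In each of them the groups overlapped.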
